A study of Arabidopsis thaliana with 24 samples.

Results

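The aquaporin family of Arabidopsis thaliana was examined in root RNA. The members were taken by locus: 35 genes of the subfamilies PIP1, PIP2, TIP, NIP and SIP were looked up among the 34212 genes counted, and genes with fewer than 10 counts in every library were set aside. This left 31 of the 35 loci: 5 of 5 PIP1, 8 of 8 PIP2, 7 of 10 TIP, 8 of 9 NIP and 3 of 3 SIP genes. The 4 genes set aside were TIP1;3 (AT4G01470), BETA-TIP (AT1G17810), TIP5;1 (AT3G47440) and NIP4;1 (AT5G37810), whose highest counts in any library were 2, 9, 7 and 1.

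All plants, DMSO controls included, were homozygous for pANT:XVE>>axr3-1-YFP, in which the ANT promoter drives XVE and estradiol (EST) then switches on a YFP fusion of axr3-1, a dominant form of an Aux/IAA repressor of auxin signaling. Plants aged 9 d received 5 µM EST with 1 µM BAP (6-benzylaminopurine, a synthetic cytokinin), 5 µM EST, 1 µM BAP, or DMSO, and segments from the upper main root were collected after 4 h or, in a separate experiment, after 24 h. Each of the 8 groups had 3 libraries, 24 in all. The induction is limited to cells with ANT promoter activity, and the reads come from whole segments. No wild-type plants without the transgene were analysed here, so EST itself and the induced axr3-1 cannot be told apart. Per the study's methods the experiment was done 3 times at each time point, so the p-values measure the spread between these repeats.

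Aquaporins are channel proteins that let water, and in some cases small uncharged solutes, cross membranes. The plasma membrane intrinsic proteins (PIPs) carry much of the water that moves from cell to cell in roots. PIP1 proteins generally need a PIP2 partner to reach the plasma membrane, whereas PIP2 proteins are strong water channels on their own. The tonoplast intrinsic proteins (TIPs) sit in the vacuolar membrane and pass water along with ammonia, urea or hydrogen peroxide. The NOD26-like intrinsic proteins (NIPs) pass solutes such as boric acid, arsenite and glycerol, and the small basic intrinsic proteins (SIPs) lie in the endoplasmic reticulum.

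The libraries held 14514022 to 45586679 counts. DMSO 24 h replicate 1 was the shallowest, with 6001669 counts left once organelle and ribosomal RNA genes were taken out and 54.1% of its counts on ribosomal RNA, and BAP 24 h replicate 1 had 32.5% on ribosomal RNA. Reads of AXR3, which cannot separate the transgene from the endogenous gene, came to 258 to 314 CPM (a count divided by its library's scaled total) in EST + BAP, 131 to 176 in EST and 155 to 177 in BAP libraries at 4 h, against 47.5 to 50.8 CPM in DMSO libraries. At 24 h the ranges were 137 to 168, 81.4 to 89.6 and 202 to 219 CPM, against 69.7 to 77.7 CPM in DMSO, and AXR3 was not called in EST against DMSO at that time. CPM values here were scaled by the trimmed mean of M-values (TMM) over all 24 libraries. In bulk RNA, fewer cells of a type and less RNA per cell cannot be told apart.

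Levels of different aquaporins were compared as CPM per kilobase of the longest RefSeq transcript. In DMSO roots at 24 h the tonoplast channel TIP1;2 (AT3G26520) stood first, at 603 ± 59.5 CPM per kilobase (SD, n = 3), which was 27.1% of the summed level of the 31 genes. The plasma membrane water channel PIP2;1 came next at 389 ± 78.7, or 17.5% of that sum. PIP1;2, PIP1;3 and PIP1;1 followed at 223 ± 55.0, 185 ± 15.4 and 171 ± 28.3 CPM per kilobase, and these 3 neighbours in the order lay within their SDs of each other. The lowest member was NIP7;1, at 0.166 CPM per kilobase with a count of 0 in the shallow replicate 1. The same TIP gene was first at 4 h in DMSO too, with 434 ± 59.5 CPM per kilobase and 22.9% of the sum.

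**Figure D1:**
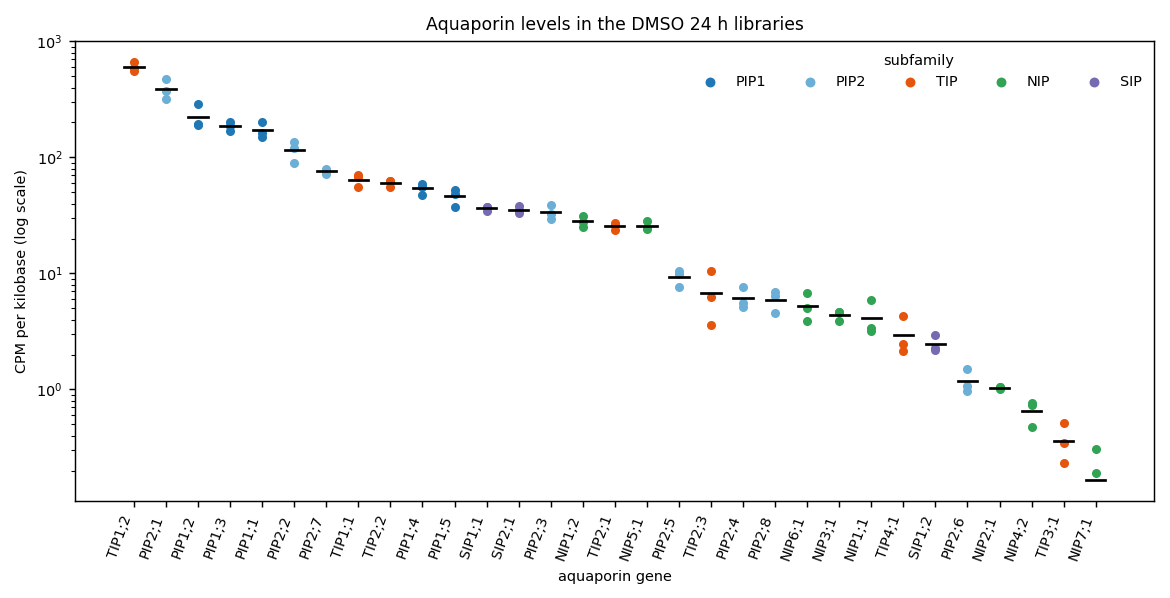
Level of each of the 31 aquaporin genes in the 3 DMSO 24 h libraries, as CPM per kilobase of transcript on a log axis, ordered by mean, with libraries as points (a value of 0 is not drawn), means as dashes and subfamilies as colours. The means run from 603 to 0.166, with PIP and TIP genes both near the top and low in the order and all 8 NIP genes from rank 15 downward.

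At a given time, EST + BAP, EST and BAP were set against the same 3 DMSO libraries, so their differences are not independent. Calls were made in edgeR's quasi-likelihood test, where the log2 fold change had to reach 0.5 in size and the p-value, adjusted over all genes tested by the Benjamini-Hochberg method, could not exceed 0.05. All adjusted p-values below come from that test unless another is named. Of the 31 genes, 24 were called in at least 1 of the 6 comparisons with DMSO, and 7 in none. The share of all genes called in at least 1 of the 6 was not computed, and a single comparison called up to 34.9%. The count of 24 is therefore not a trait shown to be particular to aquaporins. Of those 7 genes, 2 belong to PIP1, 2 to TIP, 2 to NIP and 1 to SIP, and their values are given further on.

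**Figure D2:**
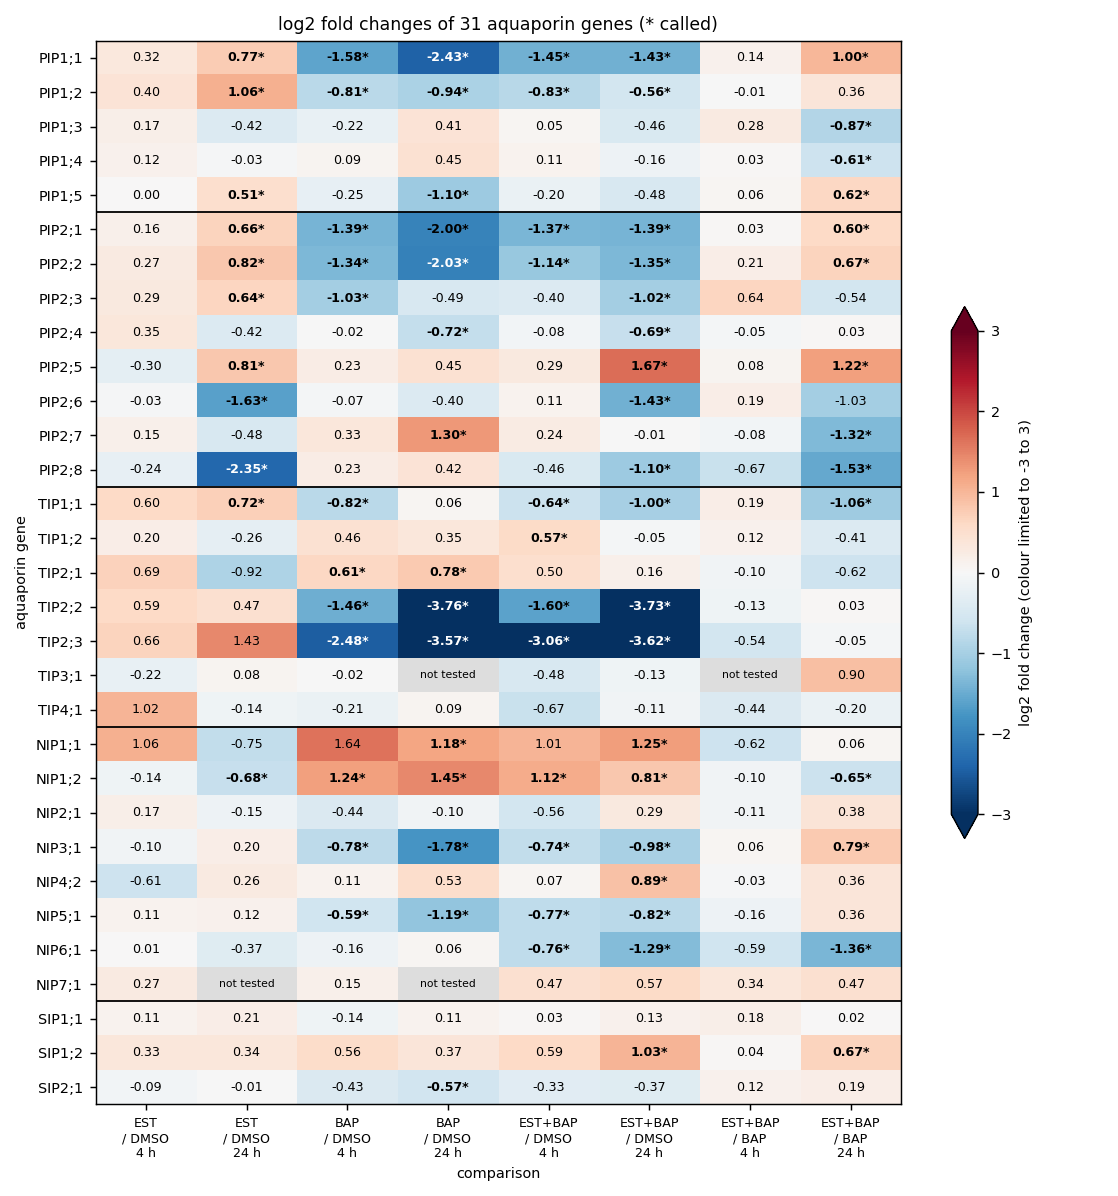
Log2 fold changes of the 31 aquaporin genes (rows, by subfamily) in EST, BAP and EST + BAP against DMSO and in EST + BAP against BAP at 4 h and 24 h (columns), where an asterisk marks a call and grey marks genes left out by the filter on low counts. The deepest blue cells are TIP2;2 and TIP2;3 in BAP and in EST + BAP, down to -3.76 on the log2 scale, while the EST 4 h column holds no call.

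BAP against DMSO asked what cytokinin did to aquaporin RNA. At 4 h, 12 of 31 aquaporins were called, against 16.8% of all genes tested. They split into 2 higher and 10 lower, where 9.64% of all genes were called higher and 7.14% lower. The median log2 fold change of the 31 genes was -0.16, against -0.01 over all genes. At 24 h, 15 of the 29 tested were called, 4 higher and 11 lower, against 34.9% of all genes (17.6% higher and 17.2% lower), with medians of 0.06 and -0.02. The genes lower at both times were 2 each of the PIP1, PIP2, TIP and NIP subfamilies, all described in turn. These 8 genes make 80.0% of the 10 genes called lower at 4 h and 72.7% of the 11 called lower at 24 h. The matching overlap over all genes was not computed, so these shares have no background to be set against.

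The largest falls in BAP at 24 h were in a pair of tonoplast channels of the TIP2 group, whose members pass ammonia as well as water. TIP2;2 (AT4G17340, chr4:9698940-9700472, TAIR10.1, plus strand) had 37.7, 33.5 and 21.8 CPM in BAP libraries at 4 h, against 113, 73.8 and 66.1 CPM in DMSO. At 24 h it had 8.48, 5.49 and 4.48 CPM in BAP libraries, against 85.0, 84.5 and 75.2 CPM in DMSO. At each time every BAP library lay below every DMSO library. The log2 fold change was -1.46 (SE 0.26, adjusted p = 0.00611) at 4 h and -3.76 (SE 0.20, adjusted p = 4.77e-06) at 24 h. TIP2;3 (AT5G47450, chr5:19248249-19249622, minus strand) had 3.39, 2.65 and 0.929 CPM in BAP against 13.9, 13.8 and 12.2 CPM in DMSO at 4 h. At 24 h it had 0.785, 0.582 and 0.536 CPM in BAP, which were counts of 15, 14 and 11, against 12.3, 7.29 and 4.17 CPM in DMSO. Its groups did not overlap at either time, and it fell by 2.48 (SE 0.34, adjusted p = 0.00255) and by 3.57 (SE 0.43, adjusted p = 0.00016) on the log2 scale.

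Sequences upstream of the genes with the largest falls and the largest called rise in BAP at 24 h are shown because members of the family moved in opposite directions in the same libraries: both of these TIP2 genes fell and NIP1;2, described further on, rose. Each line gives the 250 bases before the gene's start in the RefSeq annotation of TAIR10.1, read 5′ to 3′ along the gene's strand, at chr4:9698690-9698939 (plus), chr5:19249623-19249872 (minus) and chr4:10365794-10366043 (plus). Capitals mark matches, on either strand, to the core letters of type-B response regulators (ARRs), the transcription factors of cytokinin signaling.
TIP2;2: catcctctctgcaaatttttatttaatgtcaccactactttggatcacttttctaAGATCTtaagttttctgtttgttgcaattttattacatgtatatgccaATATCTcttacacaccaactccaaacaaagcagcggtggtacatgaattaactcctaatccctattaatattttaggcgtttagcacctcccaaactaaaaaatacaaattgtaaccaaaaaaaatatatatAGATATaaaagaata
TIP2;3: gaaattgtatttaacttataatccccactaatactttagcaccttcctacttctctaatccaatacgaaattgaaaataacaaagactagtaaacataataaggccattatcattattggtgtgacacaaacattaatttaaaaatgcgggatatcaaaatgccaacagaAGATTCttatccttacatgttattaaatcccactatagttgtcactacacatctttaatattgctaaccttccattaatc
NIP1;2: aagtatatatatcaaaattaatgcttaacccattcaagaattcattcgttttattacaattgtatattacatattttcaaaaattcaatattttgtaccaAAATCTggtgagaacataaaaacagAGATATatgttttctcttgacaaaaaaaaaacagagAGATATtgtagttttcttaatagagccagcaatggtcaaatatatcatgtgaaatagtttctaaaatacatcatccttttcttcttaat

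The letters searched were AGATAC or AGATAT or AGATCC or AGATCT or AGATTC or AGATTT on either strand, and AGATCT, which reads the same on both strands, was counted once. The first and the third of the windows shown each held 3 matches and the second held 1. Over the family, 13 of 31 windows held at least 1 match (41.9%), against 66.3% of 27443 windows of the same length. Of the 8 genes lower in BAP at both times, 3 held a match, namely the TIP2 genes shown and NIP3;1. The auxin response factor letters TGTCTC and TGTCGG were in 2 of the 31 windows (6.45%), against 14.7% of all windows. These are matches of letters, not binding sites.

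Among the plasma membrane channels, 1 PIP1 and 2 PIP2 genes had the largest falls in BAP. PIP1;1 (AT3G61430), 1 of the 5 PIP1 partners, had 83.8, 85.0 and 64.9 CPM in BAP at 4 h, against 247, 241 and 204 CPM in DMSO. At 24 h it had 58.1, 43.2 and 49.8 CPM in BAP, against 251, 316 and 231 CPM in DMSO. The lowest DMSO library was above the highest BAP library by a wide margin at both times. Its log2 fold change was -1.58 (SE 0.14, adjusted p = 0.000686) at 4 h and -2.43 (SE 0.15, adjusted p = 7.73e-06) at 24 h. PIP2;1 (AT3G53420), the most abundant PIP of the DMSO roots by CPM per kilobase, had 127, 179 and 160 CPM in BAP against 449, 398 and 362 CPM in DMSO at 4 h. At 24 h the values were 182, 120 and 168 CPM in BAP and 590, 746 and 502 CPM in DMSO. Again no library of one group reached the other, and it fell by 1.39 (SE 0.15, adjusted p = 0.00109) and by 2.00 (SE 0.19, adjusted p = 4.83e-05).

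PIP2;2 (AT2G37170, chr2:15613368-15615022, minus strand) and PIP2;3 (AT2G37180, chr2:15617635-15619155, plus strand) are neighbours on chromosome 2, 2612 bases apart. They are nearly the same in sequence, so the division of reads between them is uncertain. Their coding sequences are 858 bases each, with 45 differences (94.8% identity) and a longest identical run of 242 bases. Coding bases 403 to 492 are shown as a stretch in which reads can tell them apart, with the 12 differing bases in capitals (RefSeq, TAIR10.1).
PIP2;2: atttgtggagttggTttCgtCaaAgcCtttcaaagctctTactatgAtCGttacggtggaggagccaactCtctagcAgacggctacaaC
PIP2;3: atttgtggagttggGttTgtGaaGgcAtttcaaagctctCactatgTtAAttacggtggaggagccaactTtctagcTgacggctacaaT

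PIP2;2 had 89.96, 81.8 and 56.8 CPM in BAP at 4 h, against 200, 188 and 184 CPM in DMSO. At 24 h it had 49.6, 30.9 and 35.8 CPM in BAP, against 161, 183 and 120 CPM in DMSO. Its groups were apart at both times, and it fell by 1.34 (SE 0.17, adjusted p = 0.0018) and by 2.03 (SE 0.20, adjusted p = 6.27e-05). PIP2;3 had 38.7, 42.1 and 29.7 CPM in BAP at 4 h, against 63.6, 76.1 and 83.7 CPM in DMSO, with a log2 fold change of -1.03 (SE 0.15, adjusted p = 0.00286). The values at 24 h were 38.0, 21.7 and 30.2 CPM in BAP and 40.0, 47.2 and 36.1 CPM in DMSO, groups that overlapped, and the difference of -0.49 missed the threshold (SE 0.19, adjusted p = 0.0559). With the replicate number as a block, it was -0.53 and was called (adjusted p = 0.0352). Same-numbered libraries of these groups correlated only weakly (0.11 to 0.146), so the pairing behind that block is uncertain.

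The remaining PIP genes divided. PIP1;2 (AT2G45960) had 123, 121 and 131 CPM in BAP at 4 h against 268, 204 and 180 CPM in DMSO, and 201, 146 and 193 CPM in BAP at 24 h against 284, 433 and 294 CPM in DMSO. The groups did not overlap, and it fell by 0.81 (SE 0.15, adjusted p = 0.0074) and 0.94 (SE 0.18, adjusted p = 0.00253). PIP1;5 (AT4G23400) was called only at 24 h, when it had 30.9, 26.0 and 30.0 CPM in BAP libraries and 63.9, 70.2 and 49.3 CPM in DMSO libraries, a fall of 1.10 (SE 0.14, adjusted p = 0.000208). PIP2;4 (AT5G60660) was likewise lower at 24 h alone, with 5.86, 5.61 and 5.17 CPM in BAP and 7.99, 11.0 and 7.46 CPM in DMSO (-0.72, SE 0.17, adjusted p = 0.00674). Against this direction, PIP2;7 (AT4G35100), a water channel also named PIP3, had 298, 298 and 318 CPM in BAP at 24 h against 121, 128 and 115 CPM in DMSO. Every BAP library was above every DMSO library, and it rose by 1.30 on the log2 scale (SE 0.09, adjusted p = 1.03e-05). PIP1;3, PIP1;4, PIP2;5 and PIP2;8 had log2 fold changes of 0.41 to 0.45 at 24 h, short of the cutoff of 0.5.

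**Figure D3:**
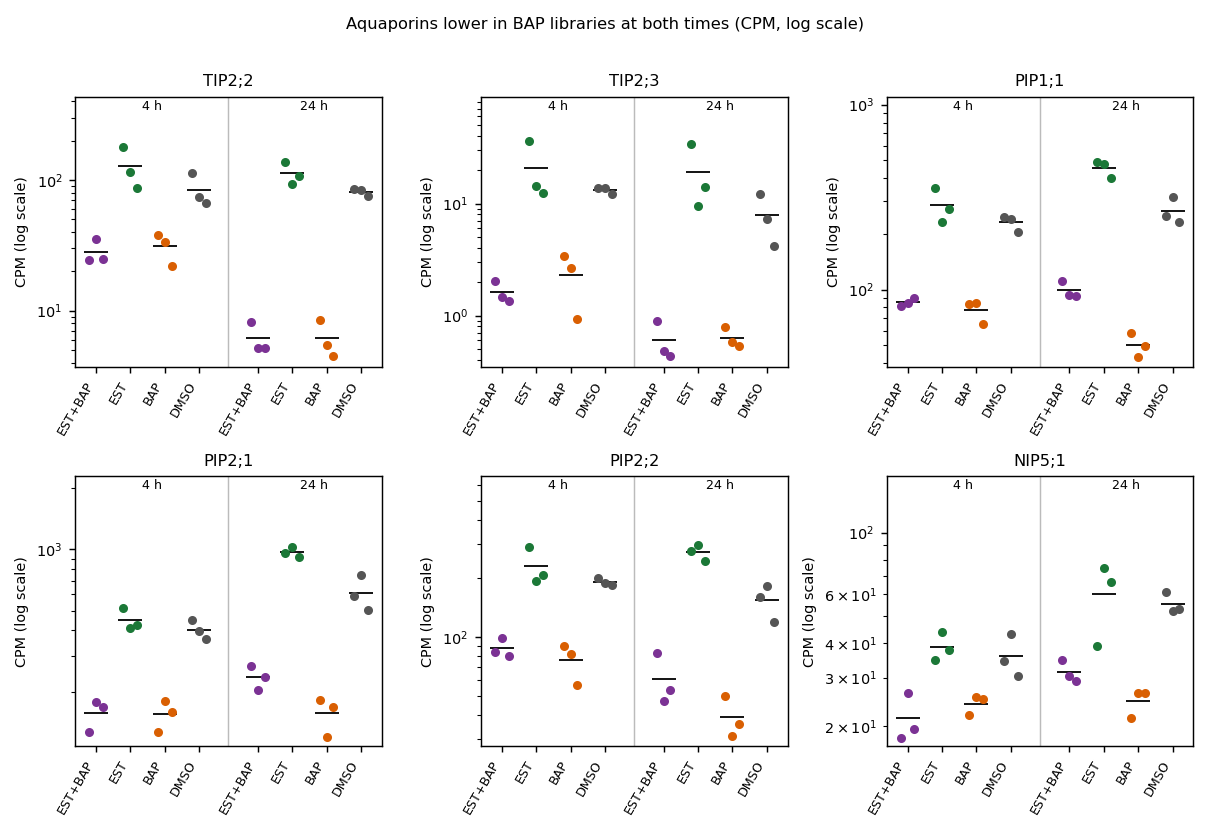
CPM of 6 aquaporins that were lower in BAP than in DMSO at both times, in each library of the 8 groups, on log axes (points are libraries, dashes are means). In TIP2;2 the 3 BAP libraries at 24 h lie between 4.48 and 8.48, below the DMSO libraries at 75.2 to 85.0, and the EST + BAP libraries lie near the BAP ones.

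In the other tonoplast genes, TIP1;1 (AT2G36830) was lower in BAP at 4 h only. It had 56.6, 67.7 and 66.9 CPM in BAP against 131, 110 and 91.6 CPM in DMSO (-0.82, SE 0.14, adjusted p = 0.00599), and at 24 h 96.8, 64.2 and 91.7 CPM in BAP against 83.5, 86.5 and 68.3 CPM in DMSO, where the groups overlapped (0.06, SE 0.16, adjusted p = 0.792). TIP2;1 (AT3G16240), the third TIP2 gene, had 37.5, 34.6 and 47.9 CPM in BAP at 4 h against 24.7, 24.7 and 28.5 CPM in DMSO, and 62.6, 40.9 and 57.6 CPM in BAP at 24 h against 28.0, 32.2 and 31.1 CPM in DMSO. All BAP libraries were above the DMSO libraries, opposite in direction to the other TIP2 genes, with log2 fold changes of 0.61 (SE 0.13, adjusted p = 0.0112) and 0.78 (SE 0.15, adjusted p = 0.00241). Its call at 4 h ended without BAP replicate 3 (0.47). The gene overlaps 2 genes on the opposite strand, and whether its counting used strand is not given in the sources used here. The most abundant member, TIP1;2, had 988, 950 and 1093 CPM in BAP at 24 h against 759, 713 and 863 CPM in DMSO, and its difference of 0.35 was short of the cutoff.

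The NIP genes, which pass small solutes, went both ways in BAP. NIP1;2 (AT4G18910, chr4:10366044-10368510, plus strand), which belongs with NIP1;1 to the group of NIPs nearest to the soybean protein the subfamily is named for, had 65.8, 53.7 and 54.3 CPM in BAP at 4 h against 20.1, 25.2 and 27.8 CPM in DMSO. At 24 h it had 106, 111 and 107 CPM in BAP against 38.3, 34.5 and 43.5 CPM in DMSO. It was higher in every BAP library, by 1.24 (SE 0.13, adjusted p = 0.00108) at 4 h and 1.45 (SE 0.10, adjusted p = 1.04e-05) at 24 h. NIP1;1 (AT4G19030) had 14.5, 17.0 and 8.82 CPM in BAP at 24 h against 4.55, 7.93 and 4.29 CPM in DMSO. These groups did not overlap, and the gene rose by 1.18 (SE 0.29, adjusted p = 0.0082), while at 4 h its libraries overlapped and the difference of 1.64 was not called (SE 0.57, adjusted p = 0.0688).

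NIP5;1 (AT4G10380), a boric acid channel needed for boron uptake by roots, had 21.9, 25.6 and 25.0 CPM in BAP at 4 h against 34.4, 43.0 and 30.3 CPM in DMSO, and 21.4, 26.3 and 26.4 CPM in BAP at 24 h against 61.1, 52.0 and 53.1 CPM in DMSO. The BAP libraries were lower at both times. The log2 fold change was -0.59 (SE 0.13, adjusted p = 0.0154) at 4 h, a call that ended without BAP replicate 1 (adjusted p = 0.0655) or without DMSO replicate 2 (-0.43), and -1.19 (SE 0.11, adjusted p = 4.14e-05) at 24 h. NIP3;1 (AT1G31885) had 5.29, 6.43 and 5.40 CPM in BAP at 4 h against 10.4, 10.1 and 8.65 CPM in DMSO, and 1.57, 1.83 and 2.05 CPM in BAP at 24 h against 6.48, 6.58 and 5.43 CPM in DMSO. It fell by 0.78 (SE 0.12, adjusted p = 0.00398) and 1.78 (SE 0.17, adjusted p = 5.65e-05), with no overlap, and it shares 95.5% identity with AT2G21020 over 27% of its length. The relative NIP6;1 (AT1G80760), a boric acid channel described in shoot nodes, differed by -0.16 at 4 h and 0.06 at 24 h and was not called. Of the SIP genes, SIP2;1 (AT3G56950) had 30.3, 26.9 and 32.8 CPM in BAP at 24 h against 40.8, 46.2 and 43.0 CPM in DMSO, a fall of 0.57 (SE 0.10, adjusted p = 0.0012) that dropped below the cutoff without BAP replicate 2 (-0.49). SIP2;1 overlaps AT3G56940 and AT3G08805 on the opposite strand, and whether its counting used strand is not given in the sources used here.

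The difference between BAP and DMSO was itself compared between 24 h and 4 h in a model of 12 libraries, called on the adjusted p alone. It differed for 7 of 31 aquaporins, 3 higher and 4 lower at 24 h, against 6.82% of all genes (3.16% higher and 3.66% lower). TIP2;2 had the largest such difference, -2.29 (SE 0.36, adjusted p = 0.00387). NIP3;1 (-0.98, SE 0.20, adjusted p = 0.0151), PIP1;5 (-0.83, SE 0.17, adjusted p = 0.0139) and PIP2;7 (0.99, SE 0.16, adjusted p = 0.00504) also differed, and these 4 kept the call without any 1 library. The other 3 calls each ended when 1 of several libraries was left out. The 4-h and 24-h plants were separate experiments, so time and experiment cannot be told apart.

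Markers of some cell types moved with BAP at both times. At 4 h the summed level of 7 periderm and suberin genes, of which 4 were called higher, was 1239 to 1380 CPM in BAP and 769 to 890 CPM in DMSO libraries. Cambium genes (3 of 6 higher) summed to 365 to 391 CPM in BAP and 195 to 250 CPM in DMSO, and green tissue genes (2 of 5 lower) to 257 to 333 CPM in BAP and 327 to 574 CPM in DMSO. At 24 h the periderm and suberin sum was 2133 to 2301 CPM in BAP and 910 to 1347 CPM in DMSO libraries, with 6 of the 7 called higher. Cambium genes (4 of 6 called higher) summed to 514 to 605 CPM in BAP and 313 to 375 CPM in DMSO, and green tissue genes (5 of 5 lower) to 188 to 298 CPM in BAP and 636 to 761 CPM in DMSO. Xylem genes (1 of 8 lower) summed to 284 to 321 CPM in BAP and 367 to 415 CPM in DMSO. In the other lists at 24 h, phloem had 1 of 7 lower and endodermis 1 of 6 higher. Root hair and epidermis had 2 higher and 2 lower of 8. Of all genes tested, 9.64% were called higher and 7.14% lower at 4 h, and 17.6% and 17.2% at 24 h. No marker of these lists was at 0 in all libraries of a group, and their part in the aquaporin differences was not tested.

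EST against DMSO asked what EST treatment of this axr3-1 line did. At 4 h none of the 31 aquaporins was called by edgeR's quasi-likelihood test, and 2 (TIP1;1 and TIP2;1) had an unadjusted p under 0.05. Of all genes 0.0139% were called (0.00927% higher and 0.00464% lower), which was 3 genes beside the 553 with an unadjusted p under 0.05, and DESeq2 called 34 genes higher and 5 lower but none of the aquaporins. EST 4 h replicate 1 was the highest library of its group for several members: TIP2;3 had 36.0, 14.3 and 12.5 CPM in EST against 13.9, 13.8 and 12.2 CPM in DMSO, and NIP1;1 had 29.4, 7.58 and 1.75 CPM in EST against 12.1, 4.25 and 2.37 CPM in DMSO. TIP4;1, a tonoplast water channel, had 24.8, 7.86 and 2.84 CPM in EST and 9.82, 4.20 and 3.61 CPM in DMSO. In all 3 genes the groups overlapped. The same replicate stood highest for the root hair and epidermis markers, whose sums were 64.6, 18.0 and 9.67 CPM in EST against 31.1, 13.3 and 6.71 CPM in DMSO, and for endodermis markers, at 69.3, 23.1 and 22.6 CPM in EST against 35.0, 22.1 and 12.4 CPM in DMSO. Their part in these values was not tested.

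At 24 h, 11 of the 30 aquaporins tested were called in EST, 8 higher and 3 lower, against 15.2% of all genes (6.26% higher and 8.96% lower). Their median log2 fold change was 0.10, against 0.01 over all genes. All but 1 of the 8 higher genes were PIPs, the other being a TIP, and the 3 lower ones were 2 PIP2 genes and 1 NIP gene.

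PIP1;2 had the largest rise called. It had 696, 786 and 622 CPM in EST, against 284, 433 and 294 CPM in DMSO, with no overlap and a log2 fold change of 1.06 (SE 0.17, adjusted p = 0.00281). PIP2;2 had 277, 298 and 245 CPM in EST against 161, 183 and 120 CPM in DMSO and rose by 0.82 (SE 0.16, adjusted p = 0.00586). PIP1;1 had 488, 476 and 399 CPM in EST against 251, 316 and 231 CPM in DMSO, which was 0.77 higher (SE 0.14, adjusted p = 0.00447). PIP2;1 had 958, 1025 and 916 CPM in EST against 590, 746 and 502 CPM in DMSO, 0.66 higher (SE 0.15, adjusted p = 0.0122). These 4 genes are among those that fell in BAP, and in each the EST libraries were all above the DMSO libraries.

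PIP2;3 had 65.4, 67.6 and 59.7 CPM in EST at 24 h against 40.0, 47.2 and 36.1 CPM in DMSO (0.64, SE 0.11, adjusted p = 0.00365). PIP1;5 had 83.9, 92.2 and 84.9 CPM in EST against 63.9, 70.2 and 49.3 CPM in DMSO. Its rise of 0.51 (SE 0.13, adjusted p = 0.0192) was at the edge of the cutoff and was not called without EST replicate 2 (0.47) or without DMSO replicate 3 (0.37). The vacuolar channel TIP1;1 had 150, 107 and 135 CPM in EST against 83.5, 86.5 and 68.3 CPM in DMSO and rose by 0.72 (SE 0.14, adjusted p = 0.00653). For TIP2;3 the EST libraries stood at 33.9, 9.57 and 14.0 CPM and the DMSO libraries at 12.3, 7.29 and 4.17 CPM, groups that overlapped, and its difference of 1.43 was not called (SE 0.50, adjusted p = 0.0652).

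The largest fall in EST at 24 h was in PIP2;8 (AT2G16850), a plasma membrane channel present at a low level. It had 1.87, 1.93 and 1.51 CPM in EST against 6.75, 10.3 and 9.36 CPM in DMSO, so the groups were well apart, and it fell by 2.35 (SE 0.19, adjusted p = 8.19e-05). PIP2;6 (AT2G39010) had 1.06, 0.590 and 0.840 CPM in EST against 2.07, 2.30 and 3.24 CPM in DMSO, lower in every EST library by 1.63 on the log2 scale (SE 0.29, adjusted p = 0.00391). NIP1;2, which rose in BAP, had 22.7, 24.3 and 25.7 CPM in EST against 38.3, 34.5 and 43.5 CPM in DMSO and fell by 0.68 (SE 0.10, adjusted p = 0.00181). TIP2;1 had 25.2, 8.85 and 14.3 CPM in EST against 28.0, 32.2 and 31.1 CPM in DMSO. Its EST libraries were all lower but spread widely, and the difference of -0.92 was not called (SE 0.30, adjusted p = 0.0543).

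Cambium markers were lower in EST at 24 h, with 6 of 6 called and sums of 147 to 158 CPM in EST against 313 to 375 CPM in DMSO. In this comparison 8.96% of all genes were called lower and 6.26% higher. Phloem markers (3 of 7 lower) summed to 95.3 to 104 CPM in EST and 151 to 183 CPM in DMSO. Periderm and suberin had 1 higher and 1 lower of 7, and green tissue 1 of 5 higher. No marker of xylem, endodermis or root hair and epidermis was called. The part of all these markers in the aquaporin differences was not tested. Between times, the difference between EST and DMSO itself differed for 3 of 31 aquaporins, 1 higher and 2 lower, against 5.18% of all genes (1.92% higher and 3.26% lower). These were PIP2;8 (-2.10, SE 0.23, adjusted p = 0.00111), PIP2;5 (1.12, SE 0.23, adjusted p = 0.0199) and PIP2;6 (-1.60, SE 0.40, adjusted p = 0.0405). The call of the first held without any 1 library, that of the second ended without DMSO 24 h replicate 3 (adjusted p = 0.0534) or EST 24 h replicate 3 (adjusted p = 0.051), and that of the third ended in 8 of 12 such fits, with adjusted p-values up to 0.132.

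EST + BAP was set against DMSO and against BAP to see what EST treatment of this line changed in the presence of cytokinin. Against DMSO at 4 h, 12 of 31 aquaporins were called, 2 higher and 10 lower, against 11.0% of all genes (6.38% higher and 4.65% lower). Against BAP at 4 h none of the 30 tested was called by edgeR's quasi-likelihood test, against 0.334% of all genes, and 5 had an unadjusted p under 0.05. The nearest was PIP2;8, with 7.33, 7.40 and 6.69 CPM in EST + BAP and 10.6, 12.9 and 10.9 CPM in BAP. Its groups did not overlap, the difference was -0.67 (SE 0.11, adjusted p = 0.0604), and it was called with the replicate number as a block (adjusted p = 0.0462) and by DESeq2. PIP2;3 was the other of the 2 aquaporins that DESeq2 called here, and it was higher in EST + BAP. Over all genes DESeq2 called 256 higher and 144 lower, against 41 and 31 by edgeR.

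Among the EST + BAP libraries at 4 h, TIP2;2 had 24.5, 35.3 and 24.8 CPM against 113, 73.8 and 66.1 CPM in DMSO, and TIP2;3 had 2.04, 1.46 and 1.34 CPM against 13.9, 13.8 and 12.2 CPM in DMSO. Both were lower in every library, by 1.60 (SE 0.24, adjusted p = 0.00653) and 3.06 (SE 0.17, adjusted p = 0.000503). NIP1;2 had 54.2, 55.0 and 51.7 CPM in EST + BAP against 20.1, 25.2 and 27.8 CPM in DMSO and rose by 1.12 (SE 0.11, adjusted p = 0.00229). PIP1;1 (-1.45), PIP2;1 (-1.37) and PIP2;2 (-1.14) were lower, with adjusted p-values of 0.00147 to 0.00306. The other 6 calls were less secure. TIP1;1 (-0.64, adjusted p = 0.0456) and NIP6;1 (-0.76, adjusted p = 0.0308) were lost with the replicate block, at adjusted p-values of 0.079 and 0.0514, whereas NIP1;1 (1.17, adjusted p = 0.0462) and SIP1;2 (0.58, adjusted p = 0.0403) were gained. PIP1;2 (-0.83, adjusted p = 0.014), TIP1;2 (0.57, adjusted p = 0.0299), NIP3;1 (-0.74, adjusted p = 0.024) and NIP5;1 (-0.77, adjusted p = 0.0264) each lost the call when 1 of at least 2 libraries was left out, EST + BAP replicate 3 in every case (adjusted p 0.0601 to 0.107).

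**Figure D4:**
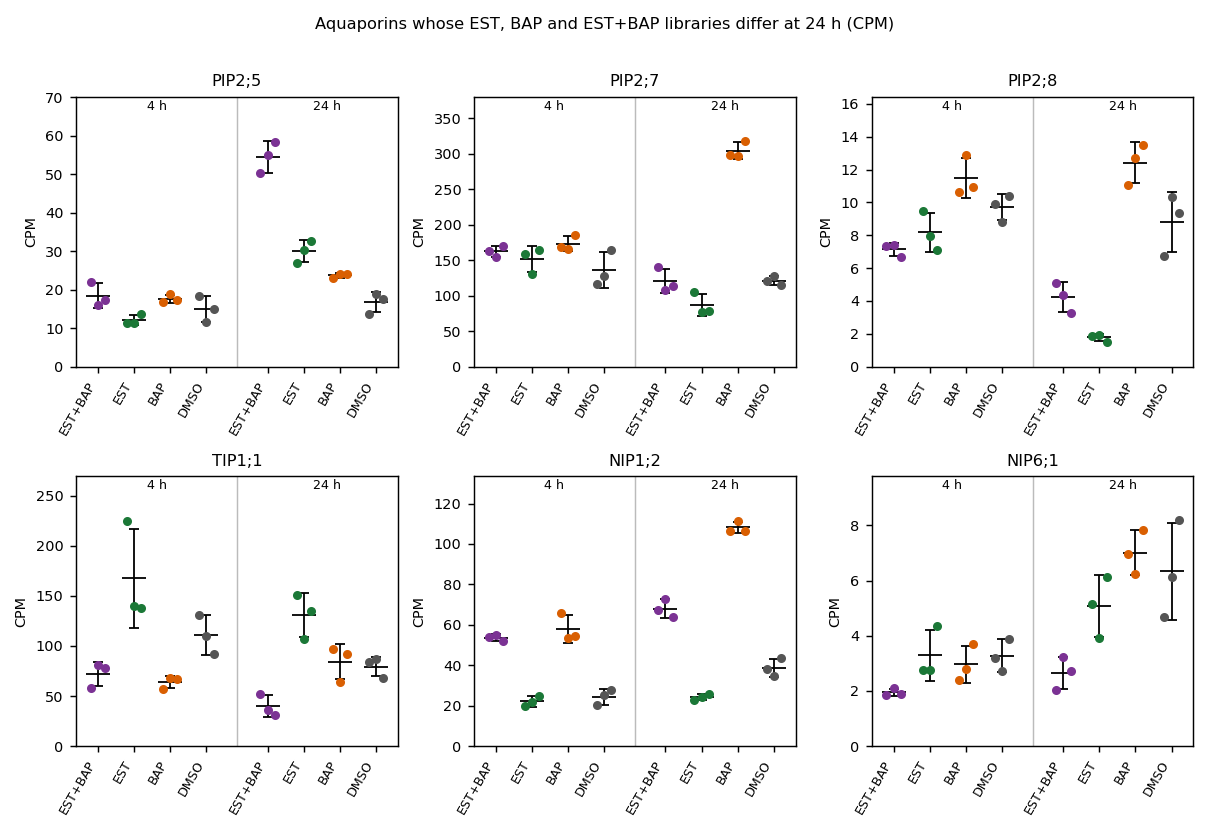
CPM of 3 PIP2 genes, 1 TIP gene and 2 NIP genes in each library of the 8 groups (points), with mean and SD of 3 libraries (bars), on linear axes from 0. At 24 h PIP2;5 is highest in EST + BAP (50.2 to 58.3), and the EST + BAP libraries of PIP2;7 (108 to 140) lie below the BAP libraries (298 to 318).

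At 24 h, EST + BAP differed from DMSO in 19 of 31 aquaporins, 5 higher and 14 lower, against 20.5% of all genes (10.4% higher and 10% lower). Against BAP it differed in 14 of 31, 7 higher and 7 lower, against 23.4% of all genes (11.6% higher and 11.8% lower). The comparisons share their EST + BAP libraries, so the values below are set side by side. Periderm and suberin markers (7 of 7 higher) summed to 2307 to 2918 CPM in EST + BAP and 910 to 1347 CPM in DMSO, phloem markers (4 of 7 lower, 1 higher) to 97.7 to 110 CPM in EST + BAP and 151 to 183 CPM in DMSO, and green tissue markers (4 of 5 lower) to 365 to 417 CPM in EST + BAP and 636 to 761 CPM in DMSO. Against BAP, xylem markers (6 of 8 higher) summed to 475 to 497 CPM in EST + BAP and 284 to 321 CPM in BAP, and cambium markers (3 of 6 lower) to 331 to 367 CPM in EST + BAP and 514 to 605 CPM in BAP. Phloem markers were called lower for 4 and higher for 2 of 7, at 138 to 143 CPM in BAP, while 4 of 7 periderm and suberin markers and 3 of 5 green tissue markers were higher. In the other lists against DMSO, cambium had 2 of 6 higher, xylem 1 of 8 higher and endodermis 1 of 7 higher. Root hair and epidermis had 2 higher and 2 lower of 8 against DMSO. The part of these markers in the aquaporin differences was not tested.

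PIP2;5 (AT3G54820), which like the other PIP2s forms water channels in the plasma membrane, was the aquaporin with the largest rise. It had 50.2, 55.1 and 58.3 CPM in EST + BAP, 26.9, 30.4 and 32.7 CPM in EST and 23.0, 24.1 and 24.0 CPM in BAP, against 13.8, 18.8 and 17.5 CPM in DMSO. The EST + BAP libraries were above all others, by 1.67 against DMSO (SE 0.11, adjusted p = 8.6e-06), 1.22 against BAP (SE 0.07, adjusted p = 2.1e-05) and 0.86 against EST (SE 0.09, adjusted p = 8.4e-05). In EST alone it was 0.81 higher than in DMSO (SE 0.12, adjusted p = 0.00163).

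PIP2;7, higher in BAP, was not higher in EST + BAP. It had 140, 108 and 113 CPM in EST + BAP against 298, 298 and 318 CPM in BAP, and 121, 128 and 115 CPM in DMSO. The EST + BAP libraries overlapped those of DMSO and were all below those of BAP, with log2 fold changes of -0.01 against DMSO (SE 0.11, adjusted p = 0.942) and -1.32 against BAP (SE 0.11, adjusted p = 6.18e-05). PIP2;8 had 5.06, 4.35 and 3.28 CPM in EST + BAP, against 11.0, 12.7 and 13.5 CPM in BAP, and 6.75, 10.3 and 9.36 CPM in DMSO. It was lower in every EST + BAP library, by 1.53 against BAP (SE 0.16, adjusted p = 0.00019) and by 1.10 against DMSO (SE 0.19, adjusted p = 0.00175), and 1.25 higher than in EST (SE 0.20, adjusted p = 0.000949).

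TIP1;1 had 52.3, 35.8 and 31.4 CPM in EST + BAP, against 96.8, 64.2 and 91.7 CPM in BAP, and 83.5, 86.5 and 68.3 CPM in DMSO. It was lower in EST + BAP than in either, by 1.06 against BAP (SE 0.21, adjusted p = 0.00438) and 1.00 against DMSO (SE 0.18, adjusted p = 0.00219), although it was higher in EST and not called in BAP. NIP6;1, a gene that overlaps another on the opposite strand, had 2.04, 3.21 and 2.71 CPM in EST + BAP, against 6.96, 6.24 and 7.85 CPM in BAP, and 4.69, 6.12 and 8.18 CPM in DMSO. The EST + BAP libraries were lowest, by 1.36 against BAP (SE 0.18, adjusted p = 0.000617) and 1.29 against DMSO (SE 0.22, adjusted p = 0.00198). NIP1;2 lay between BAP and DMSO, with 67.3, 72.9 and 63.9 CPM in EST + BAP, 106, 111 and 107 CPM in BAP, and 38.3, 34.5 and 43.5 CPM in DMSO. It was 0.65 lower than in BAP (SE 0.07, adjusted p = 0.000199) and 0.81 higher than in DMSO (SE 0.10, adjusted p = 0.000304).

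Of the 6 PIPs called lower in BAP at 24 h, 4 were called higher in EST + BAP than in BAP, and 3 of those 4 were still called lower than in DMSO. The 6 genes were picked for low values in the same BAP libraries, which favours a higher value in EST + BAP in advance. The matching share over all genes lower in BAP was not computed, so the count is a description only. PIP1;1 had 111, 93.9 and 92.2 CPM in EST + BAP, against 58.1, 43.2 and 49.8 CPM in BAP, and 251, 316 and 231 CPM in DMSO. All 3 groups were apart, at 1.00 against BAP (SE 0.12, adjusted p = 0.000403) and -1.43 against DMSO (SE 0.13, adjusted p = 5.61e-05). PIP2;1 had 266, 204 and 235 CPM in EST + BAP against 182, 120 and 168 CPM in BAP, and was 0.60 higher (SE 0.16, adjusted p = 0.0161), a call that ended without EST + BAP replicate 1 (adjusted p = 0.0534) or without BAP replicate 2 (0.44). PIP2;2 had 83.0, 47.0 and 53.3 CPM in EST + BAP against 49.6, 30.9 and 35.8 CPM in BAP. These groups overlapped, and its call (0.67, SE 0.24, adjusted p = 0.0499) ended without EST + BAP replicate 1 or 3 or BAP replicate 2 or 3 and in DESeq2. Against DMSO, PIP2;1 was lower by 1.39 (SE 0.16, adjusted p = 0.000179) and PIP2;2 by 1.35 (SE 0.22, adjusted p = 0.00139). PIP1;5 was 0.62 higher in EST + BAP than in BAP (SE 0.11, adjusted p = 0.00285), with 50.8, 39.8 and 41.7 CPM in EST + BAP and 30.9, 26.0 and 30.0 CPM in BAP, and its difference of -0.48 from DMSO was not called. The remaining genes of the 6, PIP1;2 (0.36, adjusted p = 0.0574) and PIP2;4 (0.03, adjusted p = 0.891), were not called against BAP.

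By contrast, PIP1;3 (AT1G01620) had 227, 206 and 195 CPM in EST + BAP against 398, 359 and 406 CPM in BAP, and PIP1;4 (AT4G00430) had 94.6, 86.4 and 92.7 CPM in EST + BAP against 144, 132 and 147 CPM in BAP. Both were lower in every EST + BAP library, by 0.87 (SE 0.09, adjusted p = 0.000152) and 0.61 (SE 0.07, adjusted p = 0.000334). PIP2;3 had 26.1, 16.7 and 18.4 CPM in EST + BAP against 40.0, 47.2 and 36.1 CPM in DMSO and fell by 1.02 (SE 0.17, adjusted p = 0.00146). Among the PIPs that were lower in EST + BAP than in DMSO, PIP2;6 (-1.43, adjusted p = 0.0128) was not called without DMSO replicate 3 (adjusted p = 0.069), and PIP2;4 (-0.69, adjusted p = 0.02) and PIP1;2 (-0.56, adjusted p = 0.0271) each lost the call without DMSO replicate 2, EST + BAP replicate 2 or EST + BAP replicate 3.

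The TIP2 genes that fell in BAP were as low in EST + BAP as in BAP to within the spread of the libraries. TIP2;2 had 8.16, 5.21 and 5.20 CPM in EST + BAP, against 8.48, 5.49 and 4.48 CPM in BAP, and TIP2;3 had 0.902, 0.488 and 0.437 CPM in EST + BAP, against 0.785, 0.582 and 0.536 CPM in BAP. The differences from BAP were 0.03 and -0.05 and were not called, and the differences from DMSO were -3.73 (SE 0.16, adjusted p = 1.03e-06) and -3.62 (SE 0.42, adjusted p = 0.000205). NIP5;1 had 34.7, 30.4 and 29.0 CPM in EST + BAP against 61.1, 52.0 and 53.1 CPM in DMSO (-0.82, SE 0.10, adjusted p = 0.000231). NIP3;1 had 3.69, 2.82 and 2.88 CPM in EST + BAP, against 1.57, 1.83 and 2.05 CPM in BAP, and 6.48, 6.58 and 5.43 CPM in DMSO, between those groups at 0.79 against BAP (SE 0.19, adjusted p = 0.0112) and -0.98 against DMSO (SE 0.16, adjusted p = 0.00153). NIP1;1 had 19.7, 12.04 and 10.01 CPM in EST + BAP against 4.55, 7.93 and 4.29 CPM in DMSO and rose by 1.25 (SE 0.29, adjusted p = 0.00992).

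SIP1;2 (AT5G18290), an endoplasmic reticulum member that overlaps genes on the opposite strand, had 6.94, 5.12 and 6.73 CPM in EST + BAP at 24 h against 2.62, 3.50 and 2.71 CPM in DMSO. All 3 libraries were higher, by 1.03 (SE 0.18, adjusted p = 0.00213), and the difference of 0.67 from BAP (adjusted p = 0.0254) ended without EST + BAP replicate 1 or 3 or BAP replicate 2 or 3. NIP4;2 (AT5G37820) had 1.80, 1.53 and 1.22 CPM in EST + BAP against 0.551, 0.850 and 0.891 CPM in DMSO. Its groups were apart at these low levels (0.89, SE 0.27, adjusted p = 0.0324), but the call ended in 5 of the 6 fits that left out a library, EST + BAP replicate 3 being the exception.

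Besides PIP1;3 and PIP1;4, the genes called in none of the 6 comparisons with DMSO were 5 members with small or scattered differences. SIP1;1 (AT3G04090), a water channel of the endoplasmic reticulum, varied least. It had 54.5, 51.9 and 49.2 CPM in EST + BAP, 58.4, 50.1 and 55.5 CPM in EST and 51.9, 53.4 and 50.3 CPM in BAP at 24 h, against 44.9, 47.8 and 48.5 CPM in DMSO, and its log2 fold changes ran from -0.14 to 0.21 over both times. TIP4;1 (AT2G25810) scattered within groups instead. At 24 h it had 5.38, 2.68 and 2.10 CPM in EST + BAP, 4.86, 1.41 and 3.46 CPM in EST and 3.77, 5.78 and 2.10 CPM in BAP, against 2.89, 5.06 and 2.51 CPM in DMSO, so every group overlapped the controls. NIP2;1 (AT2G34390), which passes lactic acid, came nearest to a call at 4 h. It then had 1.14, 1.43 and 1.46 CPM in EST + BAP and 1.58, 1.43 and 1.34 CPM in BAP, against 1.87, 1.96 and 2.05 CPM in DMSO. All 6 of these treated libraries were below the controls, but the differences of -0.56 (SE 0.19, adjusted p = 0.0868) and -0.44 (SE 0.18, adjusted p = 0.105) missed the threshold. The gene shares 97.5% identity with AT2G29870 over 41% of its length, so its reads are uncertain. The other members were TIP3;1 (AT1G73190), a channel of seed storage vacuoles, at 2 to 25 counts a library, and NIP7;1 (AT3G06100), a boric acid channel of anthers, at 0 to 23 counts.

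Whether EST and BAP together differed from the sum of their separate differences was tested as an interaction in the 12 libraries of each time, called on the adjusted p. At 4 h none of the 31 aquaporins passed edgeR's quasi-likelihood test, against 0% of all genes, and 2 had an unadjusted p under 0.05. At 24 h 2 passed, both lower, against 1.40% of all genes (0.980% higher and 0.423% lower). TIP1;1 was lower in EST + BAP than that sum by 1.79 on the log2 scale (SE 0.28, adjusted p = 0.0121), which held without any 1 library, and PIP2;7 by 0.84 (SE 0.18, adjusted p = 0.0362), which was lost in 8 of 12 such fits. DESeq2 called 5, the same 2 and PIP1;3, PIP1;4 and PIP2;3, all lower. Over all 21734 genes it also called more than edgeR, 556 higher and 346 lower, against 213 and 92.

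EST + BAP against EST shows BAP in plants of this line that also received EST. At 4 h 11 of 31 aquaporins were called, 2 higher and 9 lower, against 7.54% of all genes (4.16% higher and 3.39% lower). TIP2;3 (-3.72, SE 0.47, adjusted p = 0.00678) and TIP2;2 (-2.19, SE 0.29, adjusted p = 0.00794) fell most and NIP1;2 rose most (1.27, SE 0.10, adjusted p = 0.00129). The count dropped to 6 without EST + BAP replicate 1 or replicate 3. At 24 h 18 of 31 were called, 6 higher and 12 lower, against 30.3% of all genes (16.5% higher and 13.8% lower). TIP2;3 (-5.02, SE 0.58, adjusted p = 0.000149) and TIP2;2 (-4.20, SE 0.21, adjusted p = 2.94e-06) again fell most, and NIP1;1 rose most (2.01, SE 0.33, adjusted p = 0.00111). The size of the TIP2;3 falls is uncertain, because EST replicate 1 was high at both times. Its EST libraries had 36.0, 14.3 and 12.5 CPM at 4 h and 33.9, 9.57 and 14.0 CPM at 24 h. In EST + BAP at 24 h its counts were only 23, 22 and 10. Markers moved too: cambium genes (6 of 6 higher) summed to 331 to 367 CPM in EST + BAP and 147 to 158 CPM in EST, periderm and suberin genes (5 of 7 higher) to 2307 to 2918 CPM in EST + BAP and 788 to 972 CPM in EST, and green tissue genes (5 of 5 lower) to 365 to 417 CPM in EST + BAP and 634 to 959 CPM in EST. At 4 h, 3 of 6 cambium genes and 1 of 7 periderm and suberin genes were higher. Their part in the aquaporin differences was not tested.

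The summed CPM of each subfamily is dominated by its abundant members and is given as a description. The PIP1 sum was 673 ± 59.8 CPM in EST + BAP, 1556 ± 138 in EST and 788 ± 70.6 in BAP at 24 h, against 1052 ± 164 CPM in DMSO (SD, n = 3 each). The PIP2 sum was 502 ± 70.3, 1429 ± 83.5 and 574 ± 51.7 CPM in the same order, against 967 ± 170 CPM in DMSO. The EST sums of both were thus 1.48 times those of DMSO, and the EST + BAP sums 0.639 and 0.520 times. At 4 h the BAP sums were 0.673 (PIP1) and 0.572 (PIP2) times those of DMSO. The TIP sum, to which TIP1;2 contributed most, was 0.854 times that of DMSO in EST + BAP, 0.952 in EST and 1.18 in BAP at 24 h. The NIP sum was 158 ± 7.12 CPM in BAP against 114 ± 4.33 CPM in DMSO at 24 h, 1.38 times, and the SIP sums lay between 0.851 and 1.09 times those of DMSO in all 6 comparisons.

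**Figure D5:**
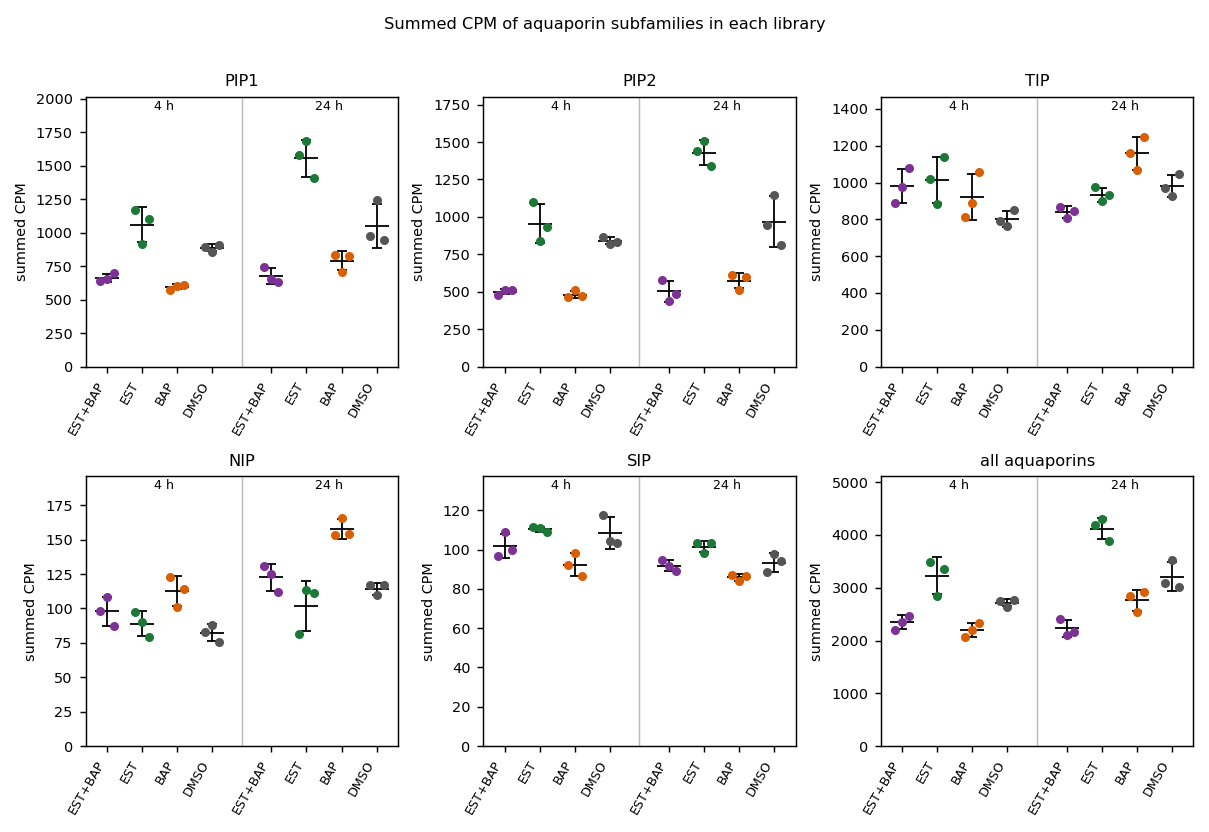
Summed CPM of the PIP1, PIP2, TIP, NIP and SIP genes and of all 31 aquaporins in each library (points) with mean and SD of 3 libraries (bars), by group at 4 h and 24 h, on linear axes from 0. At 24 h the PIP1 and PIP2 sums are highest in EST (1556 and 1429 on average) and lower in EST + BAP and BAP than in DMSO, while the SIP sums stay close together.

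Genes that work with aquaporins were taken from lists. Of the 7 BOR boron exporters, which move borate out of cells and act with NIP5;1 in boron transport, 5 were tested in BAP against DMSO. At 4 h 2 were lower, where 7.14% of all genes were, and at 24 h 2 were lower and 2 higher, against 17.2% and 17.6% of all genes. BOR1, which loads boron into the xylem, had 14.4, 14.7 and 13.6 CPM in BAP at 24 h against 40.8, 44.9 and 43.3 CPM in DMSO, and was lower by 1.58 (adjusted p = 0.000812) at 4 h and 1.63 (adjusted p = 4.72e-06) at 24 h. AT3G62270, known as BOR2, had 31.5, 42.9 and 39.4 CPM in BAP at 24 h against 287, 253 and 280 CPM in DMSO, and was lower by 1.82 (adjusted p = 0.00076) and 2.88 (adjusted p = 4.04e-06). No BAP library of either gene reached the DMSO range. The 2 higher genes were BOR5 (3.30, adjusted p = 0.000105), at 1.47, 2.33 and 1.90 CPM in BAP against 0.276, 0.142 and 0.203 CPM in DMSO, and AT3G06450 (0.54, adjusted p = 0.00159). The DMSO level of BOR5 was near the floor of the counts, so the size of its rise is uncertain. In EST at 24 h, BOR1 (-0.68, adjusted p = 0.000744) and AT3G06450 (-0.66, adjusted p = 0.00209) were lower and BOR4 was higher (0.55, adjusted p = 0.047), of 4 tested and against 15.2% of all genes called.

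Of 15 proton pump genes, which energize the plasma membrane and the tonoplast, 1 was higher and 1 lower in BAP at 4 h, and 1 was higher and 2 were lower at 24 h. All genes tested were called at 16.8% and 34.9% in these comparisons. The plasma membrane pump HA2 had 387, 526 and 433 CPM in BAP at 24 h against 1357, 1197 and 1312 CPM in DMSO. Its groups were far apart, and it fell by 0.86 (adjusted p = 0.00268) at 4 h and 1.55 (adjusted p = 2.42e-05) at 24 h. HA3 was lower at 24 h (-0.89, adjusted p = 6.14e-05), HA7 higher (0.77, adjusted p = 0.0405), and the vacuolar pyrophosphatase AVP1 higher at 4 h (0.62, adjusted p = 0.00411). In EST at 24 h HA2 was not called and stood at 1153, 1116 and 1245 CPM.

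Of 12 genes that act on aquaporin trafficking or root water transport, 3 were lower in BAP at 4 h, and 5 were lower and 1 higher of 11 tested at 24 h, where 7.14% of all genes were lower at 4 h and 17.2% were lower and 17.6% higher at 24 h. RMA1 and RMA3, related to a pepper ubiquitin ligase that retains a PIP2 protein in the endoplasmic reticulum, had 10.9, 10.4 and 9.46 CPM and 5.29, 6.57 and 5.56 CPM in BAP at 24 h, against 23.8, 20.8 and 19.4 CPM and 11.9, 12.5 and 13.2 CPM in DMSO. RMA1 fell by 1.07 (adjusted p = 7.74e-05) and RMA3 by 1.14 (adjusted p = 8.52e-05), and both were also lower at 4 h (-0.57 each). XND1, a transcription factor that limits xylem formation and root hydraulic conductivity, fell by 0.72 (adjusted p = 0.0308) at 4 h and 0.91 (adjusted p = 0.0019) at 24 h. The syntaxin SYP121 (-0.50, adjusted p = 0.0219) and the kinase OST1 (-0.62, adjusted p = 0.00112) were lower and AT3G10040, known as HRA1, was higher (1.12, adjusted p = 0.0017) at 24 h. In EST at 24 h the 1 call among 12 was RMA2, which was higher (1.21, adjusted p = 0.00225), against 15.2% of all genes called.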

How the data were processed

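Per the labels and the paper's methods, libraries that keep strand were made from total RNA after removal of ribosomal RNA. The authors trimmed reads with Trimmomatic 0.36, quantified transcripts with kallisto 0.43.0 on AtRTD2 and deposited estimated counts, which they had added up over each gene's transcripts and left as whole numbers with no normalization. The strand option of the counting is not given in the sources used here. Groups and replicate numbers came from the sample labels. All 24 columns were used.

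The 6 libraries of each pair of groups were fitted in edgeR 4.0.16 under R 4.3.3. Normalization was by TMM. Low genes were removed with filterByExpr (minimum count 10). Testing was by quasi-likelihood, with Benjamini-Hochberg adjustment across the genes kept. Interaction and time terms were fitted to 12 libraries. The filter left out NIP7;1 and TIP3;1 in BAP against DMSO at 24 h, NIP7;1 in EST against DMSO at 24 h and TIP3;1 in EST + BAP against BAP at 4 h. The fits were also run on simulated counts, which lacked the differences in ribosomal RNA between the real libraries. No result here rests on that run. Gene positions, upstream sequences and coding sequences came from RefSeq (TAIR10.1), to which all 35 loci were matched, and copies were searched with blastn 2.17.0. Values in each library are given for many, not all, of the calls and, at the time points shown, for 3 members called in none. The remaining calls are given by log2 fold change or only counted. Other members are given by ranges. The members, gene lists and tests were chosen with earlier results of these data known.

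Replicate numbers were checked as pairings by the correlation of same-numbered libraries' deviations from their group means. Every pair exceeded 0.1 in BAP against DMSO at 24 h (0.11 to 0.146) and, at 4 h, in EST + BAP against DMSO (0.124 to 0.36), BAP (0.177 to 0.318) and EST (0.221 to 0.322). The labels give only the number, so these pairs rest on the counts, and differently numbered libraries were not compared. No 2 replicates agreed within sampling noise (chi-square per degree of freedom 8.58 to 707.63).

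Alternatives were DESeq2 size factors, no filter, DESeq2 1.42.0, a replicate block, organelle and ribosomal RNA genes left out, a log2 cutoff of 0.05, all 4 groups of a time in 1 fit, each library left out in turn, and CPM of nuclear genes without TMM.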

Additional observations from a re-analysis of the deposited data

Results flagged for a closer look

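In 12 cases a member's difference under 1 treatment differed with the other treatment or with the time, by a test of the difference itself in 12 libraries (edgeR's quasi-likelihood test, adjusted over all genes). With EST and BAP together at 24 h, TIP1;1 fell short of the sum of the separate differences by -1.79 and PIP2;7 by -0.84 on the log2 scale. The BAP difference at 24 h minus that at 4 h was -2.29 for TIP2;2, -0.98 for NIP3;1, -0.83 for PIP1;1, -0.83 for PIP1;5, 0.64 for PIP1;3, 0.89 for TIP1;1 (adjusted p = 0.0419) and 0.99 for PIP2;7. The EST difference at 24 h minus that at 4 h was 1.12 for PIP2;5, -1.60 for PIP2;6 and -2.10 for PIP2;8. Of all genes, 1.40% were called for the interaction at 24 h, 6.82% for the BAP difference between times and 5.18% for the EST one. The calls of PIP2;7 in the interaction, of PIP1;1, PIP1;3 and TIP1;1 for BAP, and of PIP2;5 and PIP2;6 for EST were not secure. Each ended when 1 of several libraries was left out. Between the times, the plants also came from separate experiments.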

How the results depend on the processing

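No direction of a called result reversed under any alternative. Of the 124 calls of a member in a comparison, DESeq2 lost 3, DESeq2 size factors 1, leaving out organelle and ribosomal RNA genes 1, the replicate block 4 and no filter 0. Fitting all 4 groups of a time lost 3 of 112. A log2 cutoff of 0.05 can only add calls, and against DMSO at 24 h it gave 22 in EST + BAP (19), 14 in EST (11) and 20 in BAP (15). Over all genes this cutoff called 3378 higher and 3205 lower of 21076 in EST + BAP. It called 2357 higher and 2869 lower of 21235 in EST, and 5122 higher and 5186 lower of 20832 in BAP. Among the 816 fits of a call with 1 library left out, 119 lost it. In EST + BAP against BAP at 4 h the count of 0 became 1 without the filter, 2 with DESeq2 and 1 with the replicate block. Over all genes these fits called 111, 256 and 77 higher and 75, 144 and 57 lower, against 41 and 31 in the main fit. The interaction at 24 h gave 5 calls with DESeq2, against 2, while DESeq2 called 556 of all genes higher and 346 lower, against 213 and 92. The replicate block gave 7 calls for the EST difference between times, against 3, and over all genes 517 higher and 963 lower, against 422 and 718. In EST + BAP against DMSO at 4 h the block lost TIP1;1 and NIP6;1 and gained NIP1;1 and SIP1;2. In the other paired comparisons it lost no call and gained PIP2;3 in BAP against DMSO at 24 h, PIP2;8 in EST + BAP against BAP at 4 h and NIP3;1 in EST + BAP against EST at 4 h (-0.64, adjusted p = 0.0421). The PIP2 sum in EST + BAP at 4 h was 0.566 times that of DMSO without TMM, against 0.596. The cause of these shifts was not tested. With each library left out, the counts ran from 6 to 11 (12 with all) in EST + BAP against DMSO and 6 to 11 (11) against EST at 4 h, 1 to 3 (2) for the interaction at 24 h, 4 to 7 (7) for the BAP difference between times and 1 to 4 (3) for the EST difference. They ran from 11 to 14 in BAP at 4 h, 15 to 18 in BAP, 10 to 13 in EST and 16 to 20 in EST + BAP at 24 h, all against DMSO. In some libraries PIP2;6, TIP2;3, TIP3;1, NIP2;1, NIP4;2, NIP7;1 and SIP1;2 had fewer than 20 counts. With 3 libraries a group, small differences in these genes were not detectable.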
